A study of Mus musculus with 6 samples.

Results

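The BACH, small MAF and NRF factors are transcription factors that meet on the same kind of DNA element, together with KEAP1, a protein that controls the stability of a related factor. The 8 genes described here are Bach1, Bach2, Mafk, Mafg, Maff, Nfe2l1, Nfe2l3 and Keap1, out of 23896 genes with a counted transcript. They were chosen by name, with earlier results of these data known. The RefSeq transcript with the highest mean count over the libraries stands for each gene. The cells were MEL, a line of mouse erythroleukemia cells that stop early in the red cell lineage and that DMSO drives on to differentiate. The 3 groups were untreated cells (day 0) and cells collected 2 and 4 days after 2% DMSO was added (days 2 and 4), all grown in suspension in medium with fetal bovine serum. Each day had 2 replicates, which the study calls biological replicates, so there were 6 libraries, made by stranded mRNA sequencing from total RNA. Because every treated group was also a later group, the effect of DMSO and that of time in culture cannot be told apart. The p-values set the differences between days against the spread between replicates of a day in these 6 libraries.

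Small MAF proteins have a DNA-binding domain and no activation domain, and they act by pairing with each other or with a partner. With BACH1 or BACH2 they repress, and with the cap'n'collar (CNC) activators NF-E2 p45, NRF1, NRF2 or NRF3 they activate genes through MAF recognition elements and antioxidant response elements. In red cell precursors heme binds BACH1 and releases it from such elements, which include those of globin and heme oxygenase genes, while KEAP1 marks NRF2 for degradation until oxidants or electrophiles stop it.

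The deposited values are read counts per RefSeq transcript. For day 0 the libraries held 43415610 and 53899476 counts on transcripts (replicates 1 and 2, the order used throughout), for day 2 39258359 and 45896399, and for day 4 35294930 and 45621291. Levels below are in CPM, counts scaled to the same library size after TMM normalization. Levels compared between genes are in TPM, which divide by transcript length before scaling to the same total. Replicates were least alike on day 0, where the variation between them was 59.9 times that of counting alone, against 9.09 times on day 2 and 14.2 times on day 4 (chi-squared per degree of freedom). Members for which a day 0 replicate decides the value are given with and without it.

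The label of an erythroid line was checked against marker genes. The summed level of 11 erythroid markers, led by the globin gene Hba-a1, was 1056 and 1086 CPM on day 0, 4904 and 5864 CPM on day 2, and 21510 and 23689 CPM on day 4. By day 4 10 of the 11 were called higher and 1, Klf1, lower. Markers of B cells summed to at most 1.67 CPM in a library, with 4 of 7 genes at most at 3 counts in every library, and those of mast cells to at most 3.81 CPM, with 2 of 5 genes at that floor. T cell markers, led by Lck, reached 11.6 CPM with 3 of 6 genes at the floor, and myeloid markers 6.91 CPM with 3 of 7. Megakaryocyte markers summed to 287 and 296 CPM on day 0, 218 and 243 CPM on day 2 and 550 and 624 CPM on day 4, and Itga2b was the most abundant of the 5, at a mean of 218 CPM on day 0 and 569 CPM on day 4. The list went both ways by day 4, with 3 called higher and 2 lower, which were Pf4 (5.23-fold) and Gp5 (9.86-fold). None of those 5 was at the floor in every library, and their part in the results below was not tested.

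Of the 8 genes, 7 had enough counts to be tested and 1, Nfe2l3, did not. Between day 0 and day 2, 5 of the 7 were called at an adjusted p below 0.05 (edgeR, Benjamini-Hochberg), which is 71.4% beside 62.5% of all 12381 tested genes. Bach2 alone was called higher (background 31%), and Mafg, Maff, Nfe2l1 and Keap1 were called lower (background 31.5%). Between day 2 and day 4, 3 were called, beside 30.3% of all genes, with Mafk and Mafg higher (background 14%) and Bach2 lower (background 16.2%). Across the whole course, day 4 against day 0, 5 were called, beside 71.8% of all genes, with Bach1, Bach2 and Mafk higher (background 35.5%) and Mafg and Maff lower (background 36.4%). The steps themselves differed for 2 members, Bach2 and Mafg, beside 30% of all genes. With so many genes changing, these counts are near the background and are no result about the family, so what follows is each member's own course.

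Some of these counts changed when 1 library was left out. That leaves a day with 1 library, whose spread is then assumed to be like that of the other days. Calls over all transcripts changed in such fits too, with some ranges given at the end. A changed count or a lost call is thus not by itself a trait of a member. Between day 2 and day 0, 3 members were called without either day 2 replicate. Between day 4 and day 2, the count was 0 without day 2 replicate 1, 1 without day 2 replicate 2 and 0 without day 4 replicate 2. For the difference between the steps, it was 5 without day 0 replicate 1 and 4 without day 0 replicate 2. Scaling by total counts alone moved the median log2 fold change of all genes by 0.20 between day 0 and day 2, by -0.08 between day 2 and day 4 and by 0.11 over the whole course. It also moved the share of calls that were higher, from 49.6% to 63.4%, from 46.4% to 32.7% and from 49.4% to 55.1%, so changes are given relative to the median gene, as TMM scaling does.

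**Figure D1:**
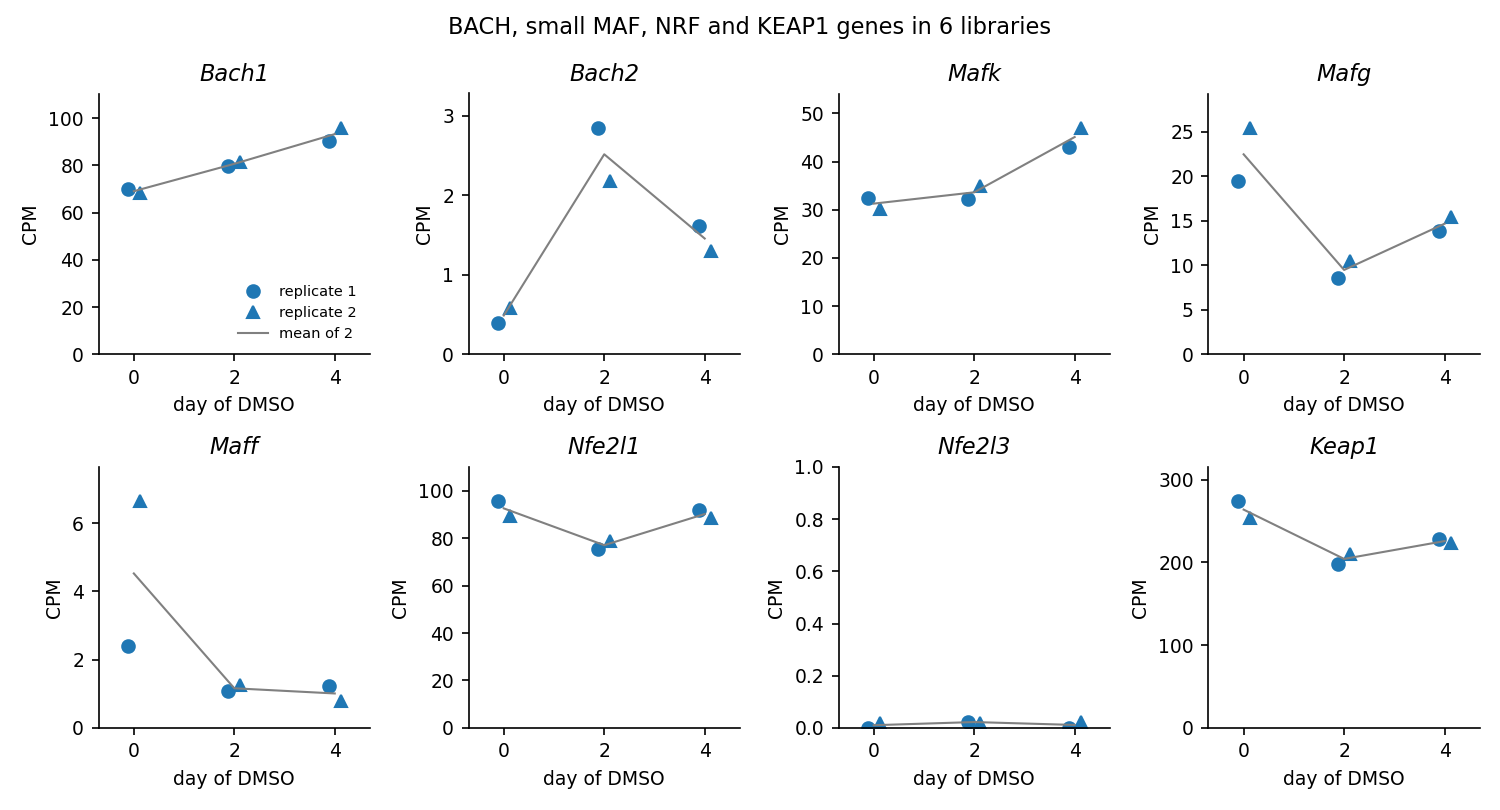
Level of each of the 8 genes in CPM (vertical axis, linear and starting at 0) by day of DMSO (horizontal axis), with 1 point per library and a line through the mean of the 2 replicates. Bach2 was highest on day 2, at 2.85 and 2.18 CPM, whereas Mafg was lowest on that day, at 8.53 and 10.4 CPM.

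Bach1 (NM_007520, chromosome 16, 87698954 to 87733346, GRCm38), the heme-binding repressor of this network, was at 69.9 and 68.1 CPM on day 0, 79.8 and 81.4 CPM on day 2, and 90.4 and 96 CPM on day 4. Every library of a later day was above every library of an earlier one, and the replicates of each day lay close together. The rise over the whole course was 1.35-fold (log2 fold change 0.43, SE 0.098, edgeR, Benjamini-Hochberg adjusted p = 0.00204), with both day 4 libraries above both day 0 libraries. Neither step was called alone, at log2 fold changes of 0.22 (adjusted p = 0.0655) and 0.21 (adjusted p = 0.126) in edgeR. The second step minus the first was -0.01 (SE 0.17, adjusted p = 0.957, edgeR). With total counts alone the first step was called, at 0.42 (adjusted p = 0.00341, edgeR). In bulk samples such as these, a change in the RNA of each cell and a change in the share of cells that hold it cannot be told apart.

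Bach2 (NM_001109661, chromosome 4, 32238413 to 32586109), a repressor of the same family best known from B and T lymphocytes, was a rare transcript, with 16 and 29 counts on day 0, 119 and 107 on day 2, and 58 and 59 on day 4. Scaled by depth these were 0.392 and 0.584 CPM, then 2.85 and 2.18 CPM, then 1.61 and 1.3 CPM. No libraries of different days overlapped: day 2 was highest, day 4 between, and day 0 lowest. The rise to day 2 was 5.04-fold (log2 fold change 2.33, SE 0.29, adjusted p = 4.69e-05), the largest of any member in these 3 comparisons when all 6 libraries are used. Day 4 was still 2.92-fold above day 0 (log2 fold change 1.54, SE 0.31, adjusted p = 0.000847), in 2 of 2 libraries, again by edgeR with Benjamini-Hochberg adjustment. The steps differed by -3.13 on the log2 scale (SE 0.45, adjusted p = 0.000814, edgeR), so the second step was below the first.

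The fall of Bach2 from day 2 to day 4 was less firm. It was 1.73-fold (log2 fold change -0.79, SE 0.25, edgeR, Benjamini-Hochberg adjusted p = 0.037), with both day 4 libraries below both day 2 libraries. In edgeR the call was lost without any 1 library of day 2 or day 4, in fits that called fewer transcripts in all. The log2 fold change was -0.59 without day 2 replicate 1 and -0.98 without day 2 replicate 2. It was -0.94 without day 4 replicate 1 and -0.64 without day 4 replicate 2. DESeq2 did not call it either, at -0.78 (adjusted p = 0.11). The antisense gene Bach2os, which overlaps 271 bases of Bach2 on the opposite strand, had 0 counts in every library, which allows up to 3 counts.

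Since BACH2 is known from lymphocytes, the B and T cell markers were set beside it. The 7 B cell markers summed to 1.67 and 1.19 CPM on day 0, 0.407 and 0.814 CPM on day 2, and 0.416 and 0.177 CPM on day 4, with Cd79b the most abundant. The 6 T cell markers summed to 11.6 and 9.81 CPM, then 10.2 and 10.6 CPM, then 6.15 and 4.82 CPM, with Lck the most abundant. Neither sum was highest on day 2 by its mean, and days 0 and 2 overlapped for the T cell sum. Among the tested markers, a single rare one in each list, Cd3g and Cd22, was highest on day 2 by its mean. Cd3e and Ebf1, at the floor, were also highest then, each with 3 counts in all. The other tested markers of these lists went other ways: Cd79b was called 10.6-fold lower to day 2 (log2 fold change -3.41, adjusted p = 6.36e-05, edgeR), Cd3d was highest on day 4 with a rise from day 2 (2.12, adjusted p = 0.0101), and Lck fell from day 2 to day 4 (-0.99, adjusted p = 0.00247). Cd3g (NM_009850), for a chain of the T cell receptor complex, had 2 and 6 counts on day 0, 48 and 63 on day 2, and 16 and 26 on day 4. Its days were in the same order as those of Bach2, without overlap. It rose 13.4-fold to day 2 (log2 fold change 3.75, SE 0.42, edgeR, Benjamini-Hochberg adjusted p = 2.14e-05), or 23.4-fold without day 0 replicate 2 and 9.87-fold without replicate 1. It fell from day 2 to day 4 (-1.24, SE 0.31, adjusted p = 0.0122, edgeR), a call lost with DESeq2 (-1.24, 0.0876) and without day 2 replicate 1 (-1.32, 0.091), day 2 replicate 2 (-1.16, 0.112) or day 4 replicate 1 (-1.08, 0.0688).

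Cd22 (NM_001043317), for a receptor of B cells, had 4 and 1 counts on day 0, 10 and 29 on day 2, and 12 and 4 on day 4, so days 2 and 4 overlapped. It was called higher to day 2 (log2 fold change 2.87, SE 0.80, edgeR, Benjamini-Hochberg adjusted p = 0.00891), though not without day 0 replicate 2 (2.08, 0.0506) or day 2 replicate 2 (2.05, 0.14), and the value was 4.22 without day 0 replicate 1. Its steps differed by -3.95 (adjusted p = 0.0295, edgeR), a call lost without day 2 replicate 1 (-4.89, 0.066), day 2 replicate 2 (-2.31, 0.427) or day 4 replicate 2 (-3.22, 0.063), and lay between -5.31 and -2.31 over all libraries left out in turn. At the floor of 3 counts in every library were 4 of the 7 B cell markers and 3 of the 6 T cell markers, which were Cd3e, Cd4 and Cd8a. Of the 7 myeloid markers, 1 was called higher to day 2 and 2 lower. The higher one, Lyz2, had 18 and 13 counts on day 0, 72 and 60 on day 2, and 17 and 10 on day 4. It rose to day 2 (log2 fold change 2.08, adjusted p = 0.000699, edgeR) and fell after it (-2.12, adjusted p = 0.00286). The part of such markers in the course of Bach2 was not tested.

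The small MAF genes code for the shared partners. Mafk (NM_010757, chromosome 5, 139791536 to 139802653) was at 32.4 and 30.1 CPM on day 0, 32.2 and 35 CPM on day 2, and 43.1 and 47.1 CPM on day 4. Days 0 and 2 overlapped, and both day 4 libraries stood above all 4 earlier ones. Its rise over the whole course was 1.44-fold (log2 fold change 0.53, SE 0.11, edgeR, Benjamini-Hochberg adjusted p = 0.00152). From day 2 to day 4 it was 1.34-fold (log2 fold change 0.42, SE 0.11, adjusted p = 0.0175, edgeR), and the first step was not called, at 0.10 (adjusted p = 0.443). The steps were not shown to differ, at 0.32 (adjusted p = 0.248, edgeR). The call for the second step was lost without day 2 replicate 1 (0.36, adjusted p = 0.189), day 2 replicate 2 (0.48, 0.0794) or day 4 replicate 2 (0.36, 0.168) in edgeR, and total counts alone called the first step, at 0.30 (adjusted p = 0.0403).

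Mafg (NM_010756, chromosome 11, 120625117 to 120634955) went down and then partly back. It was at 19.5 and 25.5 CPM on day 0, 8.53 and 10.4 CPM on day 2, and 13.9 and 15.4 CPM on day 4. Day 2 was lowest and day 0 highest, with no overlap between days. It fell 2.37-fold to day 2 (log2 fold change -1.24, SE 0.16, edgeR, Benjamini-Hochberg adjusted p = 6.95e-05) and rose 1.55-fold from there to day 4 (log2 fold change 0.63, SE 0.16, adjusted p = 0.015), in 2 of 2 libraries each. Day 4 remained 1.53-fold below day 0 (log2 fold change -0.62, SE 0.16, adjusted p = 0.00484, edgeR), or -0.42 (adjusted p = 0.021) without day 0 replicate 2. The test of the steps themselves gave a difference of 1.87 (SE 0.29, adjusted p = 0.00122, edgeR). The call for the second step was lost without day 2 replicate 1 (0.49, adjusted p = 0.179) or day 4 replicate 2 (0.55, 0.105) in edgeR. Mafg shares 124 bases with Sirt7 on the same strand, so reads in that stretch may be counted for both. Sirt7 was at 1512 and 2036 counts on day 0, 2129 and 2873 on day 2, where Mafg was lowest, and 3091 and 4251 on day 4.

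Maff (NM_010755, chromosome 15, 79346621 to 79359078), a small MAF gene known to respond to stress, had 98 and 330 counts on day 0, 45 and 61 on day 2, and 44 and 36 on day 4. Its level was 2.4 and 6.65 CPM, then 1.08 and 1.24 CPM, then 1.22 and 0.796 CPM. Both day 0 libraries were above all others, but they differed widely from each other, and days 2 and 4 overlapped. Maff fell 3.92-fold to day 2 (log2 fold change -1.97, SE 0.41, edgeR, Benjamini-Hochberg adjusted p = 0.00159) and lay 4.59-fold below day 0 on day 4 (log2 fold change -2.20, SE 0.43, adjusted p = 0.000717). The size of the fall depends on day 0: without replicate 2 it was -1.05 (adjusted p = 0.00721) and -1.28 (adjusted p = 0.00179), and without replicate 1 it was -2.51 and -2.75, each still called by edgeR. Between day 2 and day 4 the log2 fold change was -0.23 (SE 0.47, adjusted p = 0.747, edgeR). The steps were not shown to differ, at 1.74 (adjusted p = 0.114, edgeR). That difference also depends on day 0, at 2.28 without replicate 1 and 0.82 without replicate 2.

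**Figure D2:**
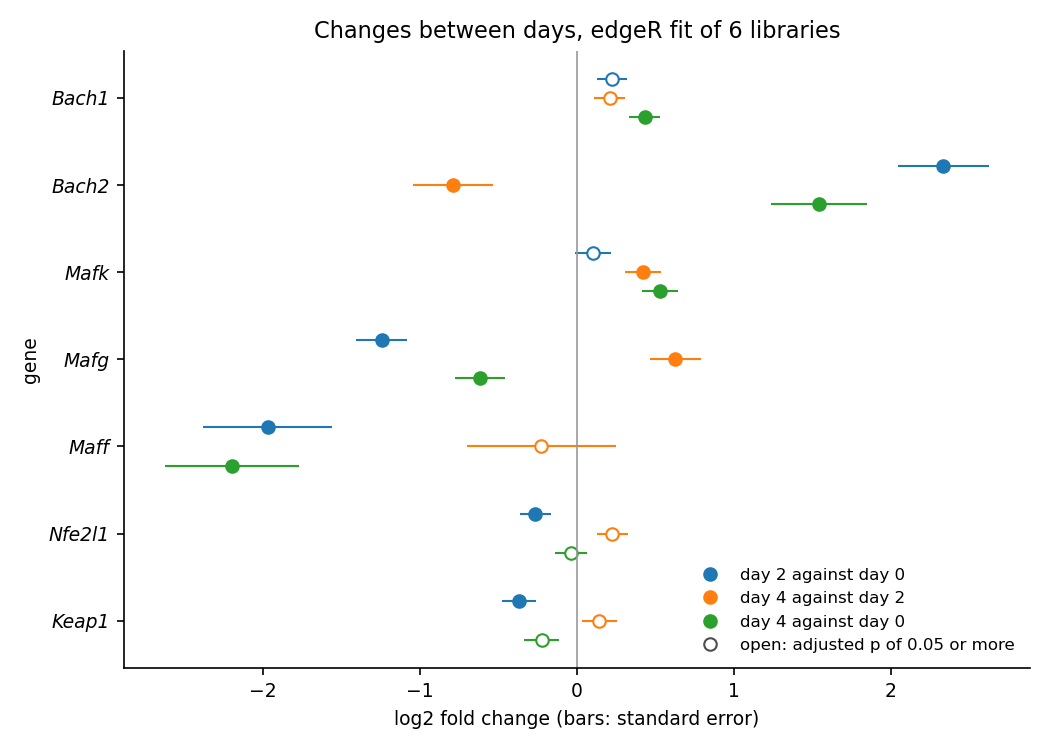
Log2 fold change of the 7 tested members in each of the 3 comparisons (horizontal axis, log2 scale), with bars of 1 SE from edgeR and filled points for adjusted p below 0.05. Bach2 lies farthest to the right at 2.33 and Maff farthest to the left at -2.20.

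Short sequences are shown for the members whose RefSeq promoter (GRCm38.p6, 250 bases before to 50 after a start) holds a searched motif, since Mafg is itself known as a target of the factors it partners. All 8 genes matched, with 14 promoters. The only entries for Bach2 and Mafg have their starts 179022 and 1408 bases inside the transcripts followed above, so they are not the promoters of those transcripts' own starts, whereas the windows of Mafk, Maff and Keap1 are. The motifs, read on both strands, were TGACTCA and TGCTGANTC for the MAF recognition element, TGACNNNGC for the antioxidant response element, and AGATAA and TGATAA for GATA factors. Some of these overlap: TGCTGANTC can hold most of TGACTCA, which can also be part of a TGACNNNGC site, and both GATA motifs end in GATAA. Each of the 3 small MAF genes, and none of the other 5 members, had TGACNNNGC. It was held by 14% of all genes with a promoter entry and by 12.4% of all 32851 promoters, beside 21.4% of the members' 14. Outside the members, the gene for NRF2 (Nfe2l2) held it too. AGATAA was in promoters of Keap1 and Maff (12.7% of all genes, 11.2% of all promoters), and TGATAA in that of Bach2 (10.4% and 9.05%). TGACTCA (5.95% of all genes, 5.20% of all promoters) and TGCTGANTC (1.46% and 1.28%) were found in 0 of the 8. Each line gives 30 bases of the gene's own strand, 5′ to 3′, with the motif, or its reverse complement, in capitals. A match is a description of letters and no evidence of binding.
Mafk, chr5:139791513-139791542, + strand: gatcccggaaGCGGTGTCAgtactggggag
Mafg, chr11:120633750-120633779, - strand: ctctgcaggaGCACGGTCAacccggcgagc
Maff, chr15:79346499-79346528, + strand: gggcgtctcaTGACTCTGCcactggaaaga
Maff, chr15:79346398-79346427, + strand: gatctcactgaaAGATAAaaagatgtgata
Bach2, chr4:32417185-32417214, + strand: accTGATAAgggaagcttgtctgcagggaa
Keap1, chr9:21239443-21239472, - strand: tattttacaagaAGATAAatatcgcaacca

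The make-up of the small MAF pool was described by TPM, which allows for the lengths of the transcripts. Mafk made up 68.7% and 55.2% of the summed TPM of the 3 genes on day 0, 83.2% and 81.7% on day 2, and 81.4% and 82.3% on day 4. For Mafg the share was 23.9% and 27%, then 12.7% and 14.1%, then 15.2% and 15.6%. Maff contributed 7.41% and 17.7%, then 4.05% and 4.22%, then 3.35% and 2.02%. Mafk was thus the most abundant small MAF transcript in every library, and its share on day 0 was below that in all 4 later libraries, whereas the shares of the other 2 were above. To compare days, the pool was summed in TMM CPM per 1000 bases, at 16.6 and 19.1 on day 0, 13.6 and 15 on day 2, and 18.6 and 20.1 on day 4. Both day 2 libraries were below all others in that sum, and days 0 and 4 overlapped. In TPM, which lack the TMM scaling, the sums were 37.7 and 42.1, then 36.6 and 40.1, then 45.8 and 48.3. The means keep the order of the days, but in TPM days 0 and 2 overlapped and days 0 and 4 did not. Which days overlap thus depends on the scale. No test was run on these shares or sums.

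**Figure D3:**
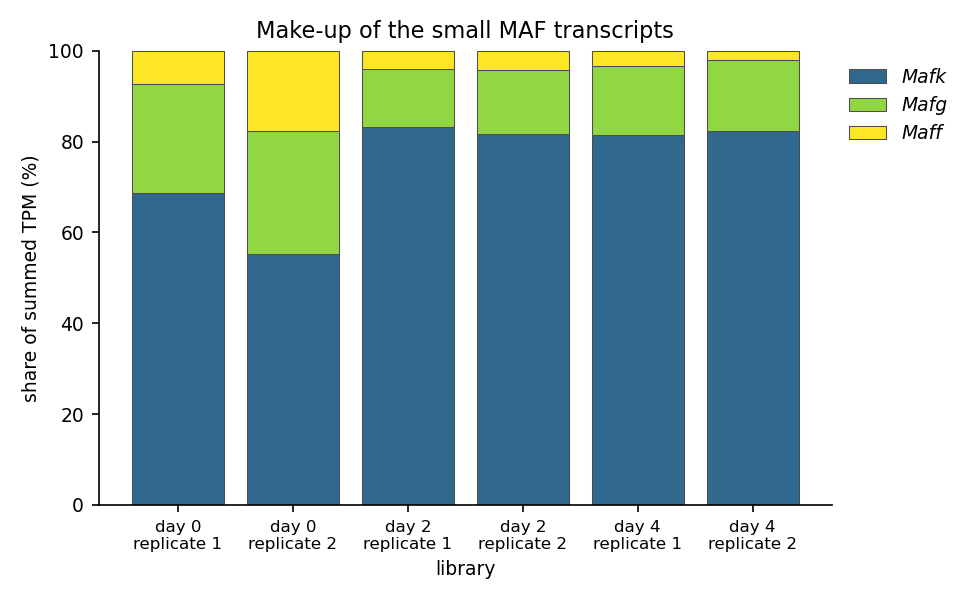
Share of Mafk, Mafg and Maff in their summed TPM (vertical axis, percent, from 0) for each of the 6 libraries (horizontal axis, by day and replicate). Mafk takes 55.2% and 68.7% on day 0 and between 81.4% and 83.2% in the libraries of days 2 and 4.

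Set against the pool, Bach1 amounted to 0.72 and 0.606 of the summed small MAF TPM on day 0, 1 and 0.922 on day 2, and 0.829 and 0.815 on day 4. All libraries of days 2 and 4 were above both of day 0, and day 2 was highest. The summed TPM of Bach1 and Bach2 was 0.165 and 0.136 of that of the activators Nfe2, Nfe2l1, Nfe2l2 and Nfe2l3 on day 0, 0.27 and 0.276 on day 2, and 0.22 and 0.233 on day 4. This ratio of transcripts was also lowest on day 0 and highest on day 2, without overlap between days. It is a ratio of RNA levels and says nothing of the proteins, which heme and the proteasome are known to control.

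Nfe2l1 (NM_001130450, chromosome 11, 96817414 to 96829968) encodes NRF1, an activator held in the endoplasmic reticulum that is known to drive proteasome genes when proteasomes fall short. It was at 95.7 and 89.5 CPM on day 0, 75.4 and 78.8 CPM on day 2, and 92 and 88.5 CPM on day 4. Day 2 was lowest, and days 0 and 4 overlapped. The fall to day 2 was 1.20-fold (log2 fold change -0.26, SE 0.1, edgeR, Benjamini-Hochberg adjusted p = 0.0373), with both libraries below both of day 0. The call was lost without day 0 replicate 1 (-0.22, adjusted p = 0.0704), day 2 replicate 1 (-0.23, 0.211) or day 2 replicate 2 (-0.29, 0.123), with total counts alone (-0.07, 0.598), with no filter on low counts (-0.26, 0.07) and with only the 2 days fitted (-0.27, 0.0511), all in edgeR. From day 2 to day 4 the log2 fold change was 0.23 (adjusted p = 0.107, edgeR), or 0.22 (adjusted p = 0.0401) with only those days fitted. Day 4 against day 0 gave -0.04 (adjusted p = 0.745, edgeR). The steps missed the threshold for a difference, at 0.49 (adjusted p = 0.0541, edgeR), and passed it with DESeq2 (0.52, adjusted p = 0.0326), with relative log expression factors (0.53, 0.0418) and without day 0 replicate 1 (0.44, 0.0342) or replicate 2 (0.54, 0.013).

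The 6 counted transcripts of Nfe2l1 share most of their exons, and the counts list a read on each transcript it overlaps. NM_001130450 and NM_001130451 differ mainly by 1 exon (chromosome 11, 96827198 to 96828223), which has 1026 bases, 510 of them coding, and holds 1 annotated start codon. The N-terminal part of NRF1 is known to anchor it in the endoplasmic reticulum membrane. The difference between the counts of the 2 transcripts, as a share of the longer one's, was 15.1% (95% Wilson interval 14% to 16.3%) and 14.7% (13.6% to 15.7%) on day 0. It was 19.8% (18.4% to 21.2%) and 20.4% (19.2% to 21.7%) on day 2. On day 4 it was 20.4% (19.1% to 21.9%) and 20.8% (19.6% to 22.1%). Both day 0 libraries were below all 4 others, beyond the counting intervals, and days 2 and 4 lay together. Intervals here, and the floor of 3 counts, cover counting error only, and the exon makes up 22.3% of the matched transcript's length.

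The parts behind that share moved differently. Counts outside the exon, as NM_001130451, averaged 78.8 CPM on day 0, 61.6 CPM on day 2 and 71.6 CPM on day 4, whereas the difference averaged 13.8, 15.5 and 18.6 CPM (SD 0.952, 0.818 and 0.287, n = 2). NM_001130451 fell to day 2 with a log2 fold change of -0.36 (SE 0.1, edgeR, Benjamini-Hochberg adjusted p = 0.00919), in 2 of 2 libraries, and its steps differed by 0.57 (adjusted p = 0.0305). No test was run on the share itself, and its use was chosen after the values were seen. Reads in the exon are not proof of the long protein.

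**Figure D4:**
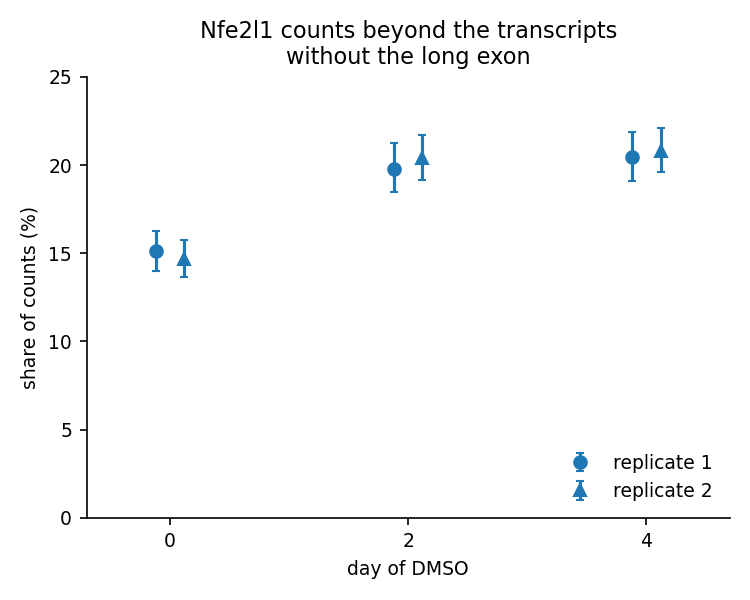
Share of the counts of NM_001130450 that were not on NM_001130451 (vertical axis, percent) in each library by day (horizontal axis), with 95% Wilson intervals as bars. The day 0 libraries sit at 15.1% and 14.7%, below the other 4, which lie between 19.8% and 20.8%.

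Nfe2l3 (NM_010903, chromosome 6, 51432669 to 51458772), which encodes NRF3, was not detectable as a changing gene at this depth. It had 4 counts in all, 0 and 1 on day 0, 1 and 1 on day 2, and 0 and 1 on day 4. All 6 libraries were at or below the floor of 3 counts, so no fold is given.

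Keap1 (NM_016679, chromosome 9, 21229730 to 21239332), the sensor that holds NRF2 in check, was at 274 and 253 CPM on day 0, 198 and 211 CPM on day 2, and 228 and 223 CPM on day 4. Day 0 was highest and day 2 lowest, without overlap between days. It fell 1.29-fold to day 2 (log2 fold change -0.37, SE 0.11, edgeR, Benjamini-Hochberg adjusted p = 0.0121), with both libraries below both of day 0. The call was lost without day 2 replicate 1 (-0.32, adjusted p = 0.12) or replicate 2 (-0.41, 0.0585) and with total counts alone (-0.17, 0.208) in edgeR. The second step gave 0.14 (adjusted p = 0.337, edgeR) and the whole course -0.22 (adjusted p = 0.0839), the latter called by DESeq2 (-0.24, adjusted p = 0.0461) and without day 0 replicate 2 (-0.29, 0.0199). The steps missed the threshold for a difference at 0.51 (adjusted p = 0.0636, edgeR), and passed it with DESeq2 (0.55, adjusted p = 0.0198) and without day 0 replicate 1 (0.45, 0.0346) or replicate 2 (0.57, 0.0116).

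Ordered by TPM, a level per transcript length, Keap1 was the most abundant member on every day. On day 0 the means were 186 TPM for Keap1 (SD 14.9, n = 2), 45.1 TPM for Nfe2l1 (SD 3.23), 26.3 TPM for Bach1 (SD 1.13), 24.6 TPM for Mafk (SD 1.88), 10.2 TPM for Mafg (SD 1.69), 5.13 TPM for Maff (SD 3.30) and 0.128 TPM for Bach2 (SD 0.0327). Bach1 and Mafk did not differ beyond their spread on that day, and Mafg and Maff differed by little more than their summed SD. The order of TPM levels was the same on the later days. On day 4 the means were 173 TPM for Keap1 (SD 5.44), 47.8 TPM for Nfe2l1 (SD 2.14), 38.6 TPM for Bach1 (SD 0.976), 38.5 TPM for Mafk (SD 1.74), 7.25 TPM for Mafg (SD 0.414), 1.26 TPM for Maff (SD 0.394) and 0.418 TPM for Bach2 (SD 0.0685). Bach1 and Mafk again overlapped. On day 2 they did not, at 36.8 TPM for Bach1 (SD 0.317) and 31.6 TPM for Mafk (SD 1.67). As the counts list a read on each overlapping transcript, TPM over all transcripts is low: computed over 1 transcript per gene, Keap1 was at 272 TPM and Bach1 at 38.5 TPM on day 0.

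The relatives outside the members were also followed, since they share the partners. Nfe2 (NM_008685), whose product NF-E2 p45 activates globin genes, was at 64 and 88.9 CPM on day 0, 36.4 and 34.7 CPM on day 2, and 53.1 and 53.7 CPM on day 4. Day 2 was lowest and day 0 highest, the same order of days as for Mafg. It fell 2.15-fold to day 2 (log2 fold change -1.11, SE 0.14, edgeR, Benjamini-Hochberg adjusted p = 6.64e-05) and rose 1.5-fold to day 4 (log2 fold change 0.59, SE 0.14, adjusted p = 0.0112), in 2 of 2 libraries each, and the steps differed by 1.69 (adjusted p = 0.00105). Day 4 was below day 0 at -0.52 (adjusted p = 0.00652, edgeR), or -0.27 (adjusted p = 0.0229) without day 0 replicate 2 and -0.74 without replicate 1. The rise from day 2 was not called without day 2 replicate 1 (0.62, adjusted p = 0.0953), day 2 replicate 2 (0.55, 0.103) or day 4 replicate 2 (0.57, 0.0688) in edgeR.

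Nfe2l2 (NM_010902), which encodes NRF2, the factor KEAP1 controls, was at 34.6 and 34.2 CPM on day 0, 33.9 and 33.8 CPM on day 2, and 48.3 and 49.5 CPM on day 4. Days 0 and 2 were alike within 1 CPM, and both day 4 libraries were higher. It rose 1.42-fold over the whole course (log2 fold change 0.51, SE 0.1, edgeR, Benjamini-Hochberg adjusted p = 0.00111). The rise from day 2 to day 4 was 0.53 (adjusted p = 0.00392, edgeR), but was not called without day 2 replicate 1 (0.53, 0.0649) or replicate 2 (0.53, 0.0515), and the first step gave -0.03 (adjusted p = 0.845). The steps differed by 0.56 (adjusted p = 0.0407, edgeR), a call lost with total counts alone (0.28, 0.278), with no filter on low counts (0.54, 0.0662) and without any 1 library of day 2 or day 4, as with day 2 replicate 1 left out (0.56, 0.246), day 2 replicate 2 (0.55, 0.244), day 4 replicate 1 (0.57, 0.102) or day 4 replicate 2 (0.54, 0.121). Mafa (NM_194350), a large MAF gene of pancreatic beta cells, was at most at 0.712 CPM in a library, and its rise to day 2 (1.01, adjusted p = 0.0433, edgeR) was lost with DESeq2 (0.99, 0.208), with only the 2 days fitted (adjusted p = 0.0516) and without day 0 replicate 1 (0.75, 0.177) or day 2 replicate 2 (0.59, 0.382). Maf and Nrl had too few counts to be tested.

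Genes around the members were then counted in lists, chosen with earlier results of these data known, each beside its median log2 fold change. The list medians stand against a median over all 12381 tested genes of 0.01 between day 0 and day 2, of -0.00 between day 2 and day 4 and of -0.02 over the whole course. Of all tested genes 62.5%, 30.3% and 71.8% were called in these comparisons, so a list with a share of calls near these is no result about the list. All 3 comparisons share libraries, so the counts of a list in them are not independent.

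Among 8 heme and iron genes known to carry antioxidant response or MAF recognition elements, 5 were called higher and 1 lower over the whole course (median 0.50), after 3 higher and 2 lower between day 0 and day 2 (median 0.19). These are 75% beside 71.8% of all genes, and 62.5% beside 62.5%, so the counts are at the background. The gene called lower was Hmox1 (NM_010442), which encodes the heme-degrading enzyme heme oxygenase 1 and is the textbook target of BACH1. It was at 43.1 and 33.3 CPM on day 0, 5.15 and 5.86 CPM on day 2, and 5.02 and 5.64 CPM on day 4. Both day 0 libraries stood far above the other 4, which overlapped. Hmox1 fell 6.93-fold to day 2 (log2 fold change -2.79, SE 0.16, edgeR, Benjamini-Hochberg adjusted p = 2.85e-07) and did not pass the test after that (-0.05, adjusted p = 0.854), for a whole fall of 7.16-fold (-2.84, SE 0.16, adjusted p = 1.17e-07). Bach1 was not called over that first step, and Bach2 rose, as given above, and no test linked these courses.

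The other named heme and iron genes went up by day 4. Fth1, for ferritin heavy chain, was followed by NR_073181, an entry that RefSeq lists as non-coding. It was at 671 and 606 CPM on day 0 and 1211 and 1308 CPM on day 4, a rise of 1.97-fold (log2 fold change 0.98, adjusted p = 3.79e-05, edgeR). Abcb6 (NM_023732), a porphyrin transporter, rose 2.39-fold (log2 fold change 1.25, adjusted p = 9.7e-06, edgeR). Ftl1 (NM_010240), for ferritin light chain, was higher at 0.65 (adjusted p = 0.006, edgeR), and not called without day 4 replicate 2 (0.44, 0.0708). Blvrb (NM_144923), for biliverdin reductase B, rose by day 2 (0.67, adjusted p = 0.00118, edgeR). Its call for day 4 (0.35, adjusted p = 0.0315) was lost without day 0 replicate 2 (0.23, 0.111), day 4 replicate 1 (0.36, 0.0916) or day 4 replicate 2 (0.34, 0.114) in edgeR. In each of these 4 genes both day 4 libraries were above both day 0 libraries. Ferritin genes have processed copies in the genome that can share reads, so their levels are less certain.

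Of 19 glutathione, thioredoxin and detoxification genes, 18 were tested, and over the whole course 6 were called higher and 8 lower (median -0.19). To day 2 they were 5 and 8 (median -0.27), and 8 in all were called without day 2 replicate 2. The shares called, 77.8% beside 71.8% of all genes and 72.2% beside 62.5%, are near the background. Slc7a11 (NM_011990), the cystine transporter that feeds glutathione synthesis, was at 43.5 and 42.2 CPM on day 0, 20 and 18 CPM on day 2, and 5.99 and 2.08 CPM on day 4. Its libraries went down from day to day without overlap, and those of day 4 differed widely from each other. It fell 10.8-fold over the whole course (log2 fold change -3.44, SE 0.33, edgeR, Benjamini-Hochberg adjusted p = 3.6e-06), or 20.6-fold without day 4 replicate 1 and 7.18-fold without day 4 replicate 2. The first step (-1.17, adjusted p = 0.00432, edgeR) was not called by DESeq2 (-1.20, 0.0585) or without day 2 replicate 2 (-1.10, 0.0545).

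The rest of that list went both ways. Gclm (NM_008129), a subunit of the rate-limiting enzyme of glutathione synthesis, lay between 78.7 and 96.5 CPM in all libraries and was not called over the whole course (0.17, adjusted p = 0.146, edgeR), but was with total counts alone (0.29, 0.0279). Nqo1 (NM_008706), the quinone reductase often read as an NRF2 target, lay between 6.17 and 7.67 CPM and was not called either (0.17, adjusted p = 0.322, edgeR). Gsta4 (NM_010357), a glutathione transferase, fell 5.02-fold (log2 fold change -2.33, adjusted p = 8.92e-06, edgeR) with both day 4 libraries below both of day 0. Abcc4 (NM_001033336), an export pump, rose 2.09-fold (log2 fold change 1.06, adjusted p = 6.39e-06, edgeR), likewise in 2 of 2 libraries. Gstp1 (NM_013541), another glutathione transferase, was called higher at 0.57 (adjusted p = 0.0343, edgeR), a call lost with only the 2 days fitted (0.57, 0.0643) and without day 0 replicate 2 (0.17, 0.147), day 4 replicate 1 (0.53, 0.111) or day 4 replicate 2 (0.60, 0.0747). In promoters, TGACTCA was found in 4 of the 15 genes of this list that had a promoter entry (26.7%, against 5.95% of all genes) and TGACNNNGC in 6 (40%, against 14%). Among the other lists TGACTCA was found in 1 of 6 NADPH and pentose phosphate enzymes and in 0 of 5 heme and iron genes, 0 of 7 heme synthesis enzymes, 0 of 7 turnover genes, 0 of 6 NRF1 processing genes, 0 of 25 proteasome subunits and 0 of 2 relatives. For TGACNNNGC these were 3, 1, 0, 0, 1, 4 and 1 in the same order, and TGCTGANTC was in 2 of the 15 and in 0 genes of every other list. Without the 50 bases after the start, TGACNNNGC was in 1 of the 6 NADPH and pentose phosphate enzymes and in 5 of the 15, and TGACTCA in 0 of the 6.

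The list of NADPH and pentose phosphate enzymes holds genes NRF2 is known to drive. Most of their products make NADPH, while others, such as transketolase, act in the pentose phosphate pathway without making it. All 6 were called lower to day 2 (median -1.26) and 5 of 6 over the whole course (median -1.14), and in all 6 the steps differed, with the second above the first. Of all tested genes 31.5% and 36.4% were called lower in these comparisons, and for 30% the steps differed in either direction. Pgd (NM_001081274), of the pentose phosphate pathway, was at 271 and 246 CPM on day 0, 55.6 and 62.2 CPM on day 2, and 59.8 and 62.6 CPM on day 4. Nearly all of its change lay before day 2, and days 2 and 4 overlapped. It fell 4.22-fold over the whole course (log2 fold change -2.08, SE 0.11, edgeR, Benjamini-Hochberg adjusted p = 8.27e-08), and Tkt (NM_009388), for transketolase, fell 2.81-fold (log2 fold change -1.49, adjusted p = 1.3e-06).

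Of the 9 heme synthesis enzymes, 7 were called higher and 0 lower to day 2 (median 1.29), and over the whole course 8 were higher and 1 lower (median 1.84). The shares called are 77.8% beside 62.5% of all genes and 100% beside 71.8%, and 31% and 35.5% of all genes were called higher. Alas2 (NM_009653), for the first enzyme of the pathway in red cells, was at 88 and 64.9 CPM on day 0, 280 and 325 CPM on day 2, and 1323 and 1510.1 CPM on day 4. Each day was above the one before, without overlap. It rose 18.5-fold (log2 fold change 4.21, SE 0.18, edgeR, Benjamini-Hochberg adjusted p = 1.89e-08). Cpox (NM_007757), also of this pathway, fell 2-fold (SE 0.12 on the log2 scale, adjusted p = 2.36e-05, edgeR), with both day 4 libraries below both of day 0.

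The list of KEAP1 and BACH1 turnover has 8 genes. They code for parts of ligases that mark NRF2 or BACH1, a receptor that binds KEAP1, and a kinase. Over the whole course 3 were called higher and 1 lower (median 0.15), after 3 and 2 to day 2 (median 0.06). That is 50% beside 71.8% of all genes, and 62.5% beside 62.5%. Fbxl17 (NM_015794), whose product is known to bind BACH1 for degradation, was at 19.5 and 16 CPM on day 0, 37.4 and 40.6 CPM on day 2, and 43.7 and 47.1 CPM on day 4. No libraries overlapped between days, and most of the change came before day 2. It rose 2.56-fold (log2 fold change 1.36, SE 0.13, edgeR, Benjamini-Hochberg adjusted p = 3.7e-06). Gsk3b (NM_019827), a kinase that marks NRF2, rose 1.78-fold (log2 fold change 0.83, adjusted p = 1.79e-05, edgeR), and Rbx1 (NM_019712), the RING subunit of the CUL3 ligase, fell 1.36-fold (-0.45, adjusted p = 0.00343), each in 2 of 2 libraries.

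Sqstm1 (NM_011018), for the autophagy receptor p62 that binds KEAP1, went down and back. It was at 207 and 226 CPM on day 0, 127 and 135 CPM on day 2, and 218 and 230 CPM on day 4. Days 0 and 4 overlapped, and both day 2 libraries lay well below them. The fall to day 2 was 1.65-fold (log2 fold change -0.72, SE 0.11, edgeR, Benjamini-Hochberg adjusted p = 0.000195) and the rise after it 1.71-fold (log2 fold change 0.77, SE 0.11, adjusted p = 0.000777). The steps differed by 1.49 (adjusted p = 0.000483, edgeR), and day 4 against day 0 gave 0.05 (adjusted p = 0.695). Nfe2l1 and Keap1 were also lowest on day 2, by smaller folds.

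For NRF1 itself, 6 genes process or turn over the protein, and over the whole course 3 were called higher and 1 lower (median 0.32), after 2 and 1 to day 2 (median 0.20). The shares called were 66.7% beside 71.8% of all genes, and 50% beside 62.5%. Syvn1 (NM_028769), for a ligase of the endoplasmic reticulum, rose 2.55-fold (log2 fold change 1.35, adjusted p = 2.36e-06, edgeR). Fbxw7 (NM_001177773), for a ligase subunit of the nucleus, rose 1.5-fold (log2 fold change 0.58, adjusted p = 0.000458, edgeR). Ddi2 (NM_001017966), for the protease that frees NRF1 from its membrane anchor, fell 1.46-fold (log2 fold change -0.55, adjusted p = 0.000543, edgeR). In each of these 3 genes both day 4 libraries lay on the same side of both day 0 libraries.

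The proteasome subunits, which NRF1 is known to drive, are the longest list. All 31 were called lower to day 2 (median -1.09) and 30 over the whole course (median -1.22), and the steps differed in 25, with the second above the first, beside the same 31.5%, 36.4% and 30% of all genes. Psmb5 (NM_011186), the chymotrypsin-like subunit, was at 83 and 114 CPM on day 0, 34.2 and 34.1 CPM on day 2, and 21.8 and 20.8 CPM on day 4. Its days did not overlap and went down at each step. It fell 4.63-fold (log2 fold change -2.21, SE 0.15, edgeR, Benjamini-Hochberg adjusted p = 2.88e-07), and Psmb7 (NM_011187), the trypsin-like subunit, fell 2.99-fold (log2 fold change -1.58, adjusted p = 2.58e-07). Nfe2l1 itself was 1.20-fold lower on day 2 and overlapped day 0 on day 4, and no test compared its course with theirs.

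Between day 2 and day 4, where 30.3% of all genes were called, most list counts moved when a replicate of these days was left out. Calls over all transcripts fell in each of those fits too, so a lower count there is no trait of a list. Of the 8 heme and iron genes 4 were called higher and 1 lower, or 62.5% (1 to 3 in all with a replicate left out). Of 18 glutathione genes these were 1 and 2, or 16.7% (1 to 3), and of 6 NADPH and pentose phosphate enzymes 2 and 0, or 33.3% (0 without any 1 of the 4 replicates). Heme synthesis gave 4 and 1 of 9, or 55.6% (3 to 5), KEAP1 and BACH1 turnover 1 and 0 of 8, or 12.5% (1 throughout), and NRF1 processing 3 and 0 of 6, or 50% (1 throughout). Proteasome subunits gave 1 and 6 of 31, or 22.6% (0 to 3), and the relatives 2 and 0 of 3, or 66.7% (0 to 2). The low ends came without day 2 replicate 1, and for proteasome subunits also without day 4 replicate 2 and for the relatives without day 2 replicate 2. NADPH and pentose phosphate enzymes had 0 calls with total counts alone, and with only these days fitted heme synthesis had 8 and proteasome subunits 12. Of the 6 relatives 3 were tested, and 1 was called higher and 1 lower both to day 2 and over the whole course. To day 2 the count was 1 in all without day 0 replicate 1 or day 2 replicate 2, by DESeq2, or with only the 2 days fitted.

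**Figure D5:**
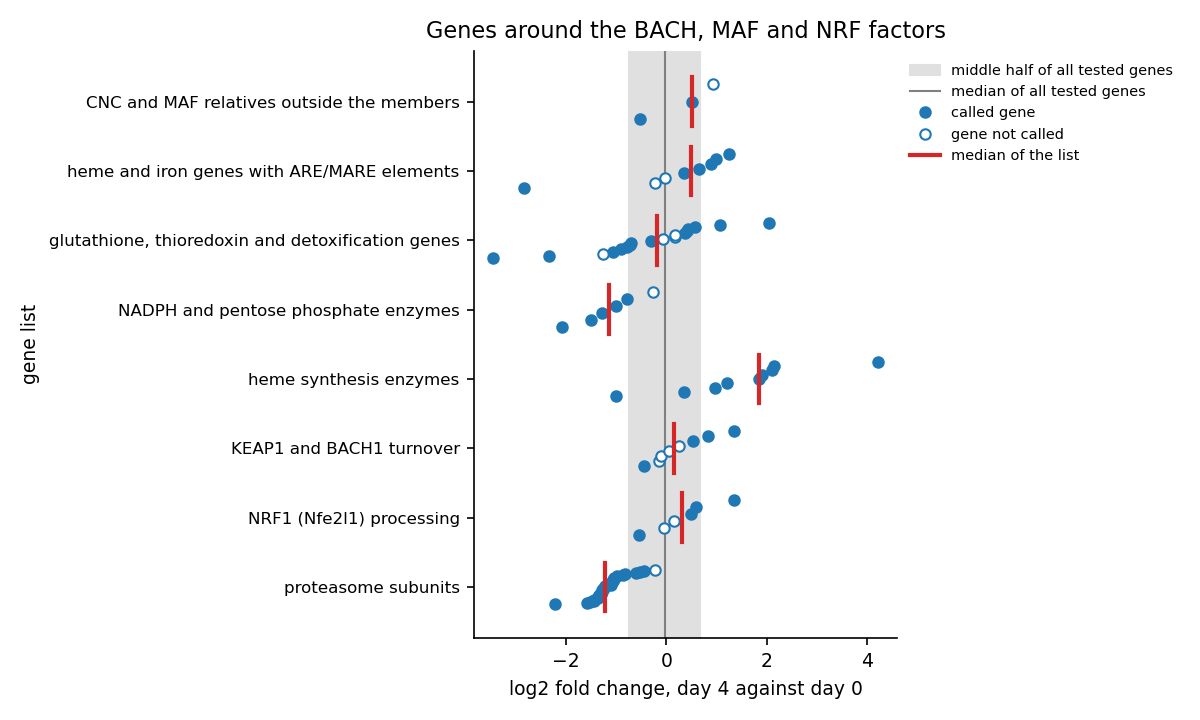
Log2 fold change of every tested gene of each list (horizontal axis, day 4 against day 0), with lists along the vertical axis, 1 point per gene, filled where the adjusted p was below 0.05, a red bar at the list's median and a grey band for the interquartile range of all tested genes. The medians run from -1.22 for proteasome subunits to 1.84 for heme synthesis enzymes.

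The genes most like each member in their course over the 6 libraries were found among 10148 genes by the Euclidean distance between centred log2 CPM profiles, where 0 is an identical course. For Bach1 they were Bcl2l13 (0.0544) and Usp22 (0.0546). For Bach2 they were Itih5 (0.459) and Reps2 (0.472), which were also highest on day 2. Mafk was most like Acsf3 (0.0655) and Sel1l (0.0673), the latter one of the NRF1 processing genes. Mafg had Cope (0.167) and Unc13d (0.18), both lowest on day 2. The nearest to Maff were Twf2 (0.468) and Tomm22 (0.493), which were also far higher in day 0 replicate 2 than in replicate 1, at 201 against 95.1 CPM for Twf2 and 196 against 80.2 CPM for Tomm22. Nfe2l1 was nearest to Ints9 (0.0561) and Senp3 (0.0603), and Keap1 to Tmem201 (0.0494) and Wars2 (0.0645). Distances are larger for Bach2 and Maff, the tested members with the fewest counts and the widest spread.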

How the data were processed

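The authors trimmed adapters with cutadapt, aligned reads to mm10 with TopHat and deposited a raw read count per RefSeq transcript; HTSeq is named without settings, and neither the counting of strands nor the annotation release is stated. Reads on no feature made up between 50.5% and 58.4% of a library and were left out, and ambiguous and non-unique reads are both listed at 0. Of 32654 transcripts, 32199 were named from RefSeq and 187 from GENCODE, and 268 were not named. The libraries held between 35294930 and 53899476 counts on transcripts.

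Counts were fitted in edgeR 4.0.16 (R 4.3.3, limma 3.58.1) after filterByExpr by day had left 18351 transcripts, with TMM scaling and a quasi-likelihood model of 1 mean per day over 6 libraries, and Benjamini-Hochberg adjustment of p over all kept transcripts, with calls at an adjusted p below 0.05. Over transcripts this called 11639 between day 0 and day 2, 5684 between day 2 and day 4 and 13268 over the whole course, and 5514 for the difference between the 2 steps. The comparisons were day 2 against day 0, day 4 against day 2, day 4 against day 0, and the second step minus the first. The fits were tested on simulated data. Errors are SE of the fit or SD over 2 replicates.

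The members and the gene lists were chosen with earlier results of these data known. The genes named are the members and their relatives, up to 2 called genes with the largest rise and up to 2 with the largest fall by day 4 in each other list (average log2 CPM of at least 1, both day 4 libraries on the same side of both day 0 libraries), 9 genes named whatever their values (Hmox1, Blvrb, Fth1, Ftl1, Slc7a11, Gclm, Nqo1, Alas2 and Sqstm1), cell type markers, and the 2 genes nearest to each tested member. Of these, 3 genes are not reported here. Promoters came from RefSeq (GRCm38.p6).

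The alternatives were DESeq2 1.42.0, relative log expression factors, total counts alone, scaling without globin transcripts, no filter on low counts, a fit of only the 2 days, a replicate block, a log2 fold change of at least 1, 1 transcript per gene, another transcript of a gene, TPM over 1 transcript per gene, promoters without the 50 bases after the start, and leaving out each replicate. The Nfe2l1 exon share with its alternatives, the summed small MAF level in TMM CPM per 1000 bases, and the alternatives for list genes, for Cd22 and Cd3g and for the counts of the difference between the steps, were added after the data were seen. A planned comparison of protein sequences was not run, since no protein table was at hand.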

Additional observations from a re-analysis of the deposited data

How the results depend on the processing

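No called result turned its direction under any alternative run. Of the members' log2 fold changes under the alternatives, 265 kept their side of the threshold, 27 lost a call and 5 gained one. For the other named genes these were 1022, 38 and 18. The summed small MAF level gave folds of 0.80, 1.35 and 1.08 by TMM and 0.96, 1.23 and 1.18 by TPM, for day 2 against day 0, day 4 against day 2 and day 4 against day 0. Depth limits Nfe2l3, at 4 counts in all, and Bach2 and Maff, at 388 and 614. The small MAF shares gave no value with another transcript, since each has 1 counted transcript, nor did the difference between the steps with only 2 days fitted. Except where fewer transcripts, fewer libraries or a stricter limit explain a lower count by construction, the cause was not tested.

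With the replicate number as a replicate block, the transcripts called were 11564, 5578 and 13246 for day 2 against day 0, day 4 against day 2 and day 4 against day 0, and 5322 for the difference between the steps, the member genes called were 5, 3, 5 and 2, and NADPH and pentose phosphate enzymes called from day 2 to day 4 were 1. Replicate numbers did not pair libraries: the correlations of deviations between days were 0.0316, 0.0451 and 0.0791.

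With 1 transcript per gene, the transcripts called were 7683, 3666 and, for the difference between the steps, 3660. Where calls also needed a log2 change of 1 or more, they were 4209, 1082 and 6450, and 2884 for the steps, and the members called were 3, 0 and 2. That limit dropped the calls of Bach1 (0.43), Mafk (0.53) and Mafg (-0.62) for the whole course, of Bach2 (-0.79), Mafk (0.42) and Mafg (0.63) from day 2 to day 4, and of Nfe2l1 (-0.26) and Keap1 (-0.37) to day 2.

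DESeq2 called 4 members for the steps, with Nfe2l1 (0.52) and Keap1 (0.55) added, and 1 of the relatives to day 2. It also called Keap1 for the whole course (-0.24) and not Bach2 from day 2 to day 4 (-0.78). Total counts alone called Bach1 (0.42) and Mafk (0.30) to day 2, not Nfe2l1 (-0.067) or Keap1 (-0.17), and 0 NADPH and pentose phosphate enzymes from day 2 to day 4. Relative log expression factors called the steps of Nfe2l1 (0.53). No filter called those of Maff (1.73) and not Nfe2l1 to day 2 (-0.26). A fit of only 2 days did not call Nfe2l1 to day 2 (-0.27), called it to day 4 (0.22), and gave 1 of the relatives to day 2 and, from day 2 to day 4, 8 heme synthesis enzymes and 12 proteasome subunits. The 4 Nfe2l1 transcripts without the long exon gave step differences of 0.57, 0.59, 0.58 and 0.59, each called.

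Leaving out each replicate, transcripts called ranged from 1410 to 3963 from day 2 to day 4 and from 1195 to 7975 for the steps. Members called ranged from 3 to 5 to day 2, from 0 to 2 from day 2 to day 4 and from 2 to 5 for the steps. List counts to day 2 ranged from 1 to 2 for relatives and from 8 to 14 for glutathione genes. From day 2 to day 4 they ranged from 0 to 2 for relatives, 1 to 3 for heme and iron genes, 1 to 3 for glutathione genes, 3 to 5 for heme synthesis and 0 to 3 for proteasome subunits, and were 0 for NADPH and pentose phosphate enzymes and 1 for NRF1 processing. From day 2 to day 4 log2 fold changes ranged from -0.98 to -0.59 for Bach2, 0.36 to 0.48 for Mafk and 0.49 to 0.78 for Mafg. To day 2 they ranged from -0.32 to -0.22 for Nfe2l1 and from -0.43 to -0.31 for Keap1, which over the whole course ranged from -0.29 to -0.17. Step differences ranged from 0.82 to 2.28 for Maff, 0.42 to 0.55 for Nfe2l1 and 0.42 to 0.60 for Keap1.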
